A study of Rattus norvegicus with 28 samples.

Results

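The comparison described here set striatum of transgenic rats after a sciatic nerve crush against striatum of uninjured transgenic rats. Its 14 libraries are the 6 labelled TG crush and the 8 labelled TG naive, out of 28 in the series, and they were taken by the genotype and treatment that their labels give. All 14 came from male rats of the {delta}ETorA genotype, labelled TG, so the uninjured controls carry the mutant human TOR1A transgene too. The crush was made on the right side for 30 seconds, and every library, naive ones included, bears the time label of 12 weeks post injury. The strain stands for DYT-TOR1A dystonia, a hereditary disorder of movement in which torsinA, an ATPase of the endoplasmic reticulum, lacks a glutamate. The promoter that drives the transgene, the age of the rats, the side of the striatum and the hour at which tissue was taken are not given in the sources used here. Labels tell libraries apart by a number alone and do not describe separate animals, so the tests weigh differences against the library-to-library spread, which may be technical.

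Gene levels are given as RPM, reads per 1000000 reads assigned to genes, which are not corrected for gene length. Of 39538 genes in the deposited table, the 16338 with at least 1 RPM in at least 6 of the 14 libraries were tested. Changes are differences of mean log2(RPM + 0.5) between TG crush and TG naive, which understate the change of genes of low level, and a gene was said to have passed at a limma p-value adjusted over all 16338 genes (Benjamini-Hochberg) under 0.05. Gene positions are those of Rnor_6.0.

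Several of the genes that rose, Ciart with the largest rise among them, belong to the circadian clock. In this loop ARNTL (also called BMAL1) pairs with CLOCK or NPAS2 on E-box elements and drives the genes of its own repressors, the period and cryptochrome proteins, CIART, the BHLHE40 and BHLHE41 repressors and the REV-ERB receptors encoded by Nr1d1 and Nr1d2. REV-ERB proteins in turn silence Arntl and Nfil3 through the RORE element, at which ROR receptors activate. Output factors of the PAR bZIP family, Dbp, Tef and Hlf, act on D-box elements, where NFIL3 is their antagonist. Levels of these transcripts follow the time of day in most tissues, striatum included. Since the hour of collection and the sequencing run of each library are not given, their part in group differences cannot be told apart from that of the crush.

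Because members of this loop moved together, 5 of their promoters are shown with the elements that a search found. Each run is 300 bases of RefSeq's GRCr8 assembly, from 250 bases before to 50 after the annotated start, written 5′ to 3′ along the gene, and capitals mark the element. Ciart, with 3 E-boxes, is the gene that rose most, Bhlhe41 and Tef are other risen genes with an E-box, Per2 holds the D-box and Arntl the RORE.
Ciart, chr2:186112197-186112496, minus strand: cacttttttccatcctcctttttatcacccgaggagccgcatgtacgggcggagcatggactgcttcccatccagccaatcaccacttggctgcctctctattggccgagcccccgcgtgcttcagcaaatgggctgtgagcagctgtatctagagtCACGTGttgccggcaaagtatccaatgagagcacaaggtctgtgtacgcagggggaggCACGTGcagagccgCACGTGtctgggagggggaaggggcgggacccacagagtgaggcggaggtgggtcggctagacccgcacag
Bhlhe41, chr4:180569306-180569605, minus strand: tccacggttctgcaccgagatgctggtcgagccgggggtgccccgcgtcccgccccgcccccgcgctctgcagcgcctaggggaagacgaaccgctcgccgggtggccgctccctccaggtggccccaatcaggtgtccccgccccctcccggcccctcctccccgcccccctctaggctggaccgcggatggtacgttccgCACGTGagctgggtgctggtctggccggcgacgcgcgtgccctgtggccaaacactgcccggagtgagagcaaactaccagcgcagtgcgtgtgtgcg
Tef, chr7:115206577-115206876, plus strand: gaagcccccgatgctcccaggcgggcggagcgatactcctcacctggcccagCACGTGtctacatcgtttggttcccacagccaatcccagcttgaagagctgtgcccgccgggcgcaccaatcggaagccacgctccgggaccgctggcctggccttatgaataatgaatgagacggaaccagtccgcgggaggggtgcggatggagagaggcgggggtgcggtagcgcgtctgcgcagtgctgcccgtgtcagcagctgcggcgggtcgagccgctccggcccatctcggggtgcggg
Per2, chr9:99496944-99497243, minus strand: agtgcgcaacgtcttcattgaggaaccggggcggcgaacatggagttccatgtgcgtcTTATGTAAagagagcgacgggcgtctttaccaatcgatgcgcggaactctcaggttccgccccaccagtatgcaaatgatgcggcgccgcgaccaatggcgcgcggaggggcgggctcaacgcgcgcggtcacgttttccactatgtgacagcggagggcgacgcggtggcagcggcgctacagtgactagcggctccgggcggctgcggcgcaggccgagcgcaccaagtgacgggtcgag
Arntl (Bmal1 in RefSeq), chr1:176766078-176766377, plus strand: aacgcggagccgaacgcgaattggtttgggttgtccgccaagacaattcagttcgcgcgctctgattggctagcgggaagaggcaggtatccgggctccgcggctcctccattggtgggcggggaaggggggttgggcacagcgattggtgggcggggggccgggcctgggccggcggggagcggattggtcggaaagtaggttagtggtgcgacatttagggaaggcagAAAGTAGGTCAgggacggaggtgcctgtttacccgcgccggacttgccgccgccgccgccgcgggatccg
The search took the E-box as CACGTG, the D-box as TTATGTAA and the RORE by its usual 11-letter form, on both strands, and no 2 of these matches overlapped. Among 33469 promoters of this length, 6.42% held the E-box, 0.893% the D-box and 0.356% the RORE. Of the 22 clock and cold-inducible genes tested, 19 had a RefSeq promoter. Cry1, Cipc and Hlf, which did not pass, had none. The E-box was in 4 of the 10 that rose, Ciart, Bhlhe40, Bhlhe41 and Tef, in 0 of the 2 that fell and in 0 of the 7 that did not pass. In Ciart the E-boxes began 93, 35 and 21 bases before the start, in Bhlhe41 48 and in Tef 198 bases before it. The D-box of Per2 began 192 bases and the RORE of Arntl 20 bases before the start. Only the first promoter listed for a gene was searched, and other forms of the E-box were not searched for. Whether risen genes hold the E-box more often than the others was not tested. These matches describe letters in the window and are not measured binding sites.

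The libraries held 29151455 to 38407359 assigned reads, so that a count of 0 allows at most 0.103 RPM, for counting error only. All 20 markers of spiny projection neurons, the main striatal cell type, were measured, and their summed level ran from 10476 to 17703 RPM in TG naive and from 10651 to 18717 RPM in TG crush rats. The human TOR1A transcript averaged 138 ± 4.81 RPM (SD, n = 8) in TG naive and 131 ± 14.1 RPM (SD, n = 6) in TG crush rats (exact two-sided permutation p = 0.30). Some libraries stood apart. TG crush 223 had the lowest spiny neuron level (mean log2 8.42), the highest myelin level (8.62), 18.5% of its reads on mitochondrial transcripts and the most pituitary hormone RNA (Prl 11.3 and Gh1 41.9 RPM). TG crush 226 had the lowest human TOR1A level, 102 RPM, and TG naive 190 and TG crush 220 held 55.8 and 63.3 RPM of the cortical gene Slc17a7, against at most 10.6 in the other 12. Of 15 measures of depth and composition, the mean log2 level of endothelial markers had the lowest p (4.95 ± 0.22, SD, n = 6, in TG crush and 5.18 ± 0.09, SD, n = 8, in TG naive). Its exact two-sided permutation p was 0.0266, and 0.40 when adjusted over the 15 measures. Larger differences in mean log2 level, within wider spreads, were those of blood (0.76, exact permutation p = 0.0872), choroid plexus and ependyma (-0.41, p = 0.370) and pituitary markers (0.32, p = 0.529).

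In TG crush libraries 7 of 11 clock repressors, among them Ciart, Per2 and Nr1d2, and the clock output genes Dbp and Tef were higher than in TG naive ones. Arntl, Nfil3 and genes of matrix, cell adhesion and vessels (Tgm2, Mmp14, Parvb, Cd93) were lower. In all, 121 genes (0.741% of those tested) passed, 40 higher (0.245%) and 81 lower (0.496%) in TG crush, and 2702 had an unadjusted p under 0.05. Of the 121, 35 of the higher and 74 of the lower genes are annotated as protein coding. With TMM rescaling 61 genes were higher and 75 lower. The count depended on the libraries: it was 57 without the 2 libraries high in Slc17a7, and leaving out 1 library at a time gave 61 (without TG crush 220), 62 (222), 75 (219), 244 (226) and 480 (223), and 218, 79, 74, 72 and 69 without TG naive 188, 189, 190, 191 and 193. In the other 4 leave-outs the count stayed within 1.5 times the value for all 14 libraries.

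**Figure D1:**
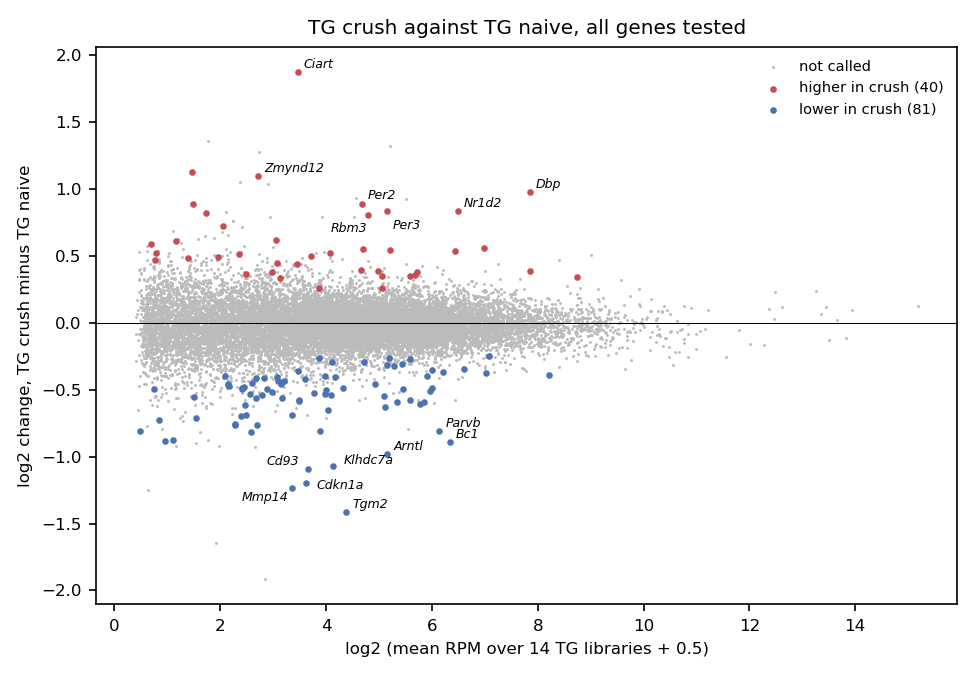
Log2 change between TG crush and TG naive (vertical axis) against the log2 mean RPM of the 14 libraries plus 0.5 (horizontal axis) for the 16338 genes tested, with the 40 higher calls in red and the 81 lower calls in blue. Ciart lies highest of all genes, at a change of 1.87, and Tgm2 is the lowest of the called genes, at -1.42, while some uncalled genes lie lower.

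Of the 20 clock genes tested, 9 rose, 2 fell and 9 did not pass, and their median change was 0.37 against -0.01 for all genes. The share that passed was 55%, against 0.741% of all genes tested. Groups of libraries did not overlap for the same number of clock genes, 9 higher and 2 lower. Of all genes 0.79% had groups that did not overlap, 0.226% higher and 0.563% lower in TG crush. The list was chosen with results of these libraries known, so these shares describe it and do not test it.

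Of the 9 risen clock genes 7 were repressors, out of 11 tested, and 0 repressors fell. Ciart (chromosome 2, 197987705 to 197991198), whose product binds ARNTL and represses the loop, ranged from 2.44 through a median of 5.11 to 5.55 RPM in TG naive and from 14.4 through 17.9 to 23.3 RPM in TG crush. Every TG crush library lay above every TG naive library. The log2 change was 1.87 (SE 0.16, adjusted p = 8.79e-06), a 3.67-fold rise, the largest of any gene tested.

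The period genes encode the repressors that give the loop its delay. Per2 (chromosome 9, 98555154 to 98597362) ranged from 12.8 through 18.1 to 23.1 RPM in TG naive and from 30.1 through 32.2 to 43.8 RPM in TG crush. Per3 (chromosome 5, 168088126 to 168123482) ranged from 22.6 through 25.1 to 34.1 RPM and from 42.7 through 45.5 to 53.1 RPM. Neither gene's groups overlapped, and the log2 changes were 0.89 for Per2 (SE 0.11, adjusted p = 0.000437) and 0.84 for Per3 (SE 0.09, adjusted p = 3.69e-05). Per1 ranged from 51.5 to 89.8 RPM in TG naive and from 63.5 to 95.7 RPM in TG crush, so its groups overlapped, and it did not pass (0.40, SE 0.12, adjusted p = 0.114).

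The REV-ERB receptors are heme-binding repressors of Arntl. Nr1d2 (chromosome 15, 8730871 to 8757165) had the lowest p of all genes tested: it ranged from 58.9 through 66.9 to 72 RPM in TG naive and from 111 through 118 to 131 RPM in TG crush, a change of 0.83 (SE 0.05, adjusted p = 3.35e-07). Nr1d1 (chromosome 10, 86683875 to 86690815) ranged from 61.1 through 72.8 to 81.7 RPM and from 85.9 through 103 to 126 RPM, a change of 0.54 (SE 0.09, adjusted p = 0.0088). It overlaps Thra on the opposite strand over 1061 bases, and since it is unstated whether strand was used in counting, some of its reads may belong to Thra, which had a change of -0.09 (adjusted p = 0.536).

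BHLHE40 and BHLHE41 compete with the activators for E-boxes. Bhlhe41 averaged 105 ± 9.998 RPM (SD, n = 8) in TG naive and 155 ± 9.54 RPM (SD, n = 6) in TG crush rats, a change of 0.56 (SE 0.07, adjusted p = 0.000239). Bhlhe40 averaged 30.7 ± 5.05 (SD, n = 8) and 44.7 ± 4.94 RPM (SD, n = 6), a change of 0.55 (SE 0.10, adjusted p = 0.0153), with an adjusted p of 0.0551 without TG crush 220. No TG crush library overlapped the TG naive range for either gene. The cryptochromes, partners of the period proteins, and Cipc, a CLOCK-interacting repressor, did not pass: Cry1 had a change of -0.20 (adjusted p = 0.299), Cry2 one of 0.20 (adjusted p = 0.096) and Cipc one of 0.23 (adjusted p = 0.0618). Cipc passed with TMM (adjusted p = 0.0314) and median-of-ratios rescaling (adjusted p = 0.0363) and without TG crush 226 (adjusted p = 0.0484). Without TG crush 223, 10 of the 11 repressors passed as higher, with Per1 (0.48, adjusted p = 0.0274), Cry2 (0.24, adjusted p = 0.0117) and Cipc (0.28, adjusted p = 0.00511) added. Per1 also passed without TG naive 187 (adjusted p = 0.0421).

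Among the 5 activators, Arntl fell and the other 4 did not pass. Arntl (chromosome 1, 178039002 to 178137469) ranged from 33.7 through 43.1 to 57.8 RPM in TG naive and from 15.5 through 23.0 to 25.4 RPM in TG crush. All TG crush libraries lay below all TG naive ones, at a change of -0.98 (SE 0.12, adjusted p = 0.00043), 1.97-fold lower. Its partners Npas2 (-0.30, SE 0.07, adjusted p = 0.0636) and Clock (-0.05, SE 0.09, adjusted p = 0.808) and the receptors Rora (0.08, SE 0.10, adjusted p = 0.744) and Rorb (0.08, SE 0.06, adjusted p = 0.530) had groups that overlapped. Npas2 passed without TG naive 192 (adjusted p = 0.0402) and without TG crush 214 (adjusted p = 0.0319).

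Of the 4 output factors, the activators Dbp and Tef rose, the repressor Nfil3 fell and Hlf did not pass. Dbp (chromosome 1, 101687896 to 101692845), a D-box activator, ranged from 123 through 166 to 196 RPM in TG naive and from 286 through 316 to 358 RPM in TG crush, a 1.97-fold rise (0.98, SE 0.10, adjusted p = 3.54e-05). Tef (chromosome 7, 123033971 to 123058606), of the same family, averaged 384 ± 14.4 RPM (SD, n = 8) and 488 ± 34.3 RPM (SD, n = 6), a change of 0.34 (SE 0.05, adjusted p = 0.00399). The D-box repressor Nfil3 (chromosome 17, 12261102 to 12276316) ranged from 10.6 through 12.5 to 16.8 RPM in TG naive and from 7.16 through 8.13 to 9.95 RPM in TG crush, and fell by 0.58 on the log2 scale (SE 0.10, adjusted p = 0.00827). For these 3 genes the groups did not overlap. Hlf, the other activator, averaged 130 ± 13.2 and 179 ± 36.2 RPM with overlapping groups and did not pass (0.44, SE 0.11, adjusted p = 0.0753), and without TG crush 223 it did (0.55, adjusted p = 0.00354). Of the 9 clock genes that did not pass, Npas2, Per1, Cry2, Cipc and Hlf passed in the fit of all 28 libraries, with adjusted p between 0.00643 (Cipc) and 0.0376 (Per1). The same 5 passed with array weights (adjusted p between 0.00428 and 0.0302) and with spiny neuron level as a covariate (adjusted p between 0.000196 and 0.0365).

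Of the 2 cold-inducible RNA-binding proteins, whose transcripts rise when body temperature falls and which vary with the daily temperature rhythm, Rbm3 rose and Cirbp did not pass. Rbm3 (chromosome X, 15098880 to 15102344) ranged from 16.2 through 20.3 to 26.8 RPM in TG naive and from 27.8 through 34.6 to 52.0 RPM in TG crush, without overlap. Its change was 0.81 (SE 0.13, adjusted p = 0.00461), and Cirbp had a change of 0.15 (SE 0.11, adjusted p = 0.512). When the test asked for a change of more than 1.2-fold, the calls of Rbm3, Nr1d1, Bhlhe40, Bhlhe41, Tef and Nfil3 were lost and those of Ciart, Dbp, Per2, Per3, Nr1d2 and Arntl were kept.

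**Figure D2:**
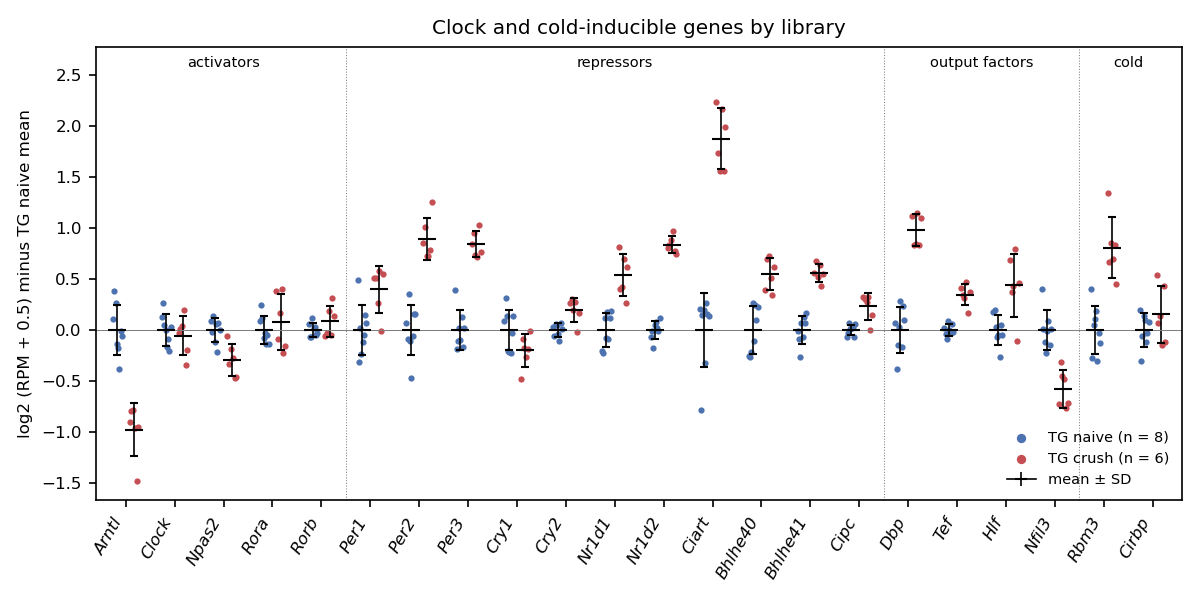
Log2(RPM + 0.5) of each library minus the TG naive mean (vertical axis) for the 20 clock and 2 cold-inducible genes tested, in blue for the 8 TG naive and in red for the 6 TG crush libraries, with mean and SD as bars. The red points of Ciart, Dbp, Per2, Per3 and Nr1d2 lie above all blue ones and those of Arntl and Nfil3 below them, whereas Clock, Rora and Rorb overlap.

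Genes for the extracellular matrix and for adhesion to it were lower where they changed. Of 35 genes in a list of collagens, matrix proteases and inhibitors, which also holds Tgm2, 4 fell (11.4%, against 0.496% of all genes) and 0 rose, with a median change of -0.13. This list and those named below were also chosen with results of these data known, so their shares describe them and do not test them. Tgm2 (chromosome 3, 154597165 to 154627257), a transglutaminase that crosslinks matrix proteins, ranged from 22.6 through 27.9 to 34.0 RPM in TG naive and from 7.99 through 9.87 to 12.4 RPM in TG crush. With no overlap, it fell by 1.42 on the log2 scale (SE 0.10, adjusted p = 1.6e-06), 2.67-fold lower. Mmp14 (chromosome 15, 33074441 to 33083666), a membrane-bound protease that cleaves collagen and activates other matrix proteases, ranged from 10.5 through 13.1 to 18.6 RPM and from 4.29 through 5.36 to 5.90 RPM, and fell by 1.24 (SE 0.11, adjusted p = 1.14e-05).

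Col4a1 and Col4a2 encode the paired chains of basement membrane collagen and lie head to head on chromosome 16 (83522162 to 83632153 and 83386388 to 83522169). Col4a1 averaged 63.9 ± 7.65 RPM (SD, n = 8) in TG naive and 41.8 ± 5.11 RPM (SD, n = 6) in TG crush, a change of -0.61 (SE 0.09, adjusted p = 0.00187), with no overlap. Col4a2 averaged 49.8 ± 5.45 and 35.3 ± 4.16 RPM, a change of -0.49 (SE 0.08, adjusted p = 0.00703), and its groups overlapped slightly, between 41.9 and 42.2 RPM. Among 26 integrin adhesion genes 1 fell (3.85%, against 0.496% of all genes), Parvb (chromosome 7, 125189827 to 125275977), whose product beta-parvin links integrins to actin. Parvb ranged from 75.5 through 87.4 to 93.7 RPM in TG naive and from 42.3 through 50.3 to 52.9 RPM in TG crush, a change of -0.81 (SE 0.06, adjusted p = 2.55e-06).

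Of 17 endothelial markers 1 fell (5.88%, against 0.496% of all genes), Cd93, and 16 had a negative change, with a median of -0.21 against -0.01 for all genes. Cd93 (chromosome 3, 142778798 to 142783774), an endothelial receptor that binds matrix proteins, ranged from 13.8 through 15.7 to 17.1 RPM in TG naive and from 5.41 through 6.78 to 9.54 RPM in TG crush. The groups did not overlap, and the change was -1.09 (SE 0.11, adjusted p = 3.54e-05), 2.13-fold lower. Pcdh12 (chromosome 18, 31415533 to 31431108), a protocadherin of endothelial junctions, averaged 1.92 ± 0.227 RPM (SD, n = 8) and 0.821 ± 0.219 RPM (SD, n = 6), a change of -0.89 (SE 0.11, adjusted p = 0.000437). The summed level of the 17 markers ran from 851 through 926 to 1020 RPM in TG naive and from 729 through 774 to 1022 RPM in TG crush, with none of them at 0 in all libraries. Of the 6 TG crush libraries 4 (214, 219, 220 and 222) were below every TG naive library in mean endothelial level, and TG crush 223 and 226 lay within the TG naive range. With the level of the endothelial markers other than Cd93 as a covariate, an alternative chosen after seeing the data, Cd93 fell by 0.91 (adjusted p = 0.00019), and 97 genes passed, 55 of them shared with the 121. Of the named genes 16 lost their call in that fit, and among them were Bhlhe40 (adjusted p = 0.0756), Rasl10a (adjusted p = 0.083), Slc7a6 (adjusted p = 0.0592), Bc1 (adjusted p = 0.0828) and Grik5 (adjusted p = 0.0936). Fewer endothelial cells and less RNA per cell cannot be told apart in bulk tissue.

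Other genes that fell had no common list. Cdkn1a (chromosome 20, 6348422 to 6358864) encodes the cell cycle inhibitor p21. It was the only member to pass of 16 p53 targets and cell cycle inhibitors (6.25%, against 0.496% of all genes lower). The same gene was the only member to pass of 18 glucocorticoid-responsive genes (5.56%). It ranged from 11 through 14.9 to 21.3 RPM in TG naive and from 5.05 through 6.13 to 8.66 RPM in TG crush, 2.29-fold lower (SE of the log2 change 0.14, adjusted p = 0.000291). Klhdc7a (chromosome 5, 158433394 to 158440185) ranged from 18.9 through 21.1 to 30.1 RPM and from 8.70 through 9.76 to 12.6 RPM, and fell by 1.07 (SE 0.11, adjusted p = 3.54e-05). Both genes showed no overlap. Klhdc7a lies within LOC108351052 on the opposite strand, a gene of 0.714 RPM on average.

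Bc1 (chromosome 1, 218075359 to 218075511) is a short noncoding RNA of rodent dendrites that represses translation. It averaged 100 ± 22.6 RPM (SD, n = 8) and 54.1 ± 12.5 RPM (SD, n = 6), a change of -0.89 (SE 0.16, adjusted p = 0.0126), and since many near copies of it lie in the rat genome its reads are uncertain. Without the libraries high in Slc17a7 its adjusted p was 0.0527. Aqp9, a channel for water and glycerol, averaged 11.6 ± 0.911 and 7.18 ± 1.79 RPM (-0.69, SE 0.11, adjusted p = 0.00703), with slightly overlapping groups.

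Gpr84, a receptor for medium-chain fatty acids on microglia, was the 1 of 17 microglial markers that fell (5.88%, against 0.496% of all genes). It averaged 6.21 ± 0.82 RPM (SD, n = 8) in TG naive and 3.65 ± 0.404 RPM (SD, n = 6) in TG crush, a change of -0.69 (SE 0.09, adjusted p = 0.000996). The summed microglial level ran from 765 through 985 to 1116 RPM in TG naive and from 711 through 846 to 1070 RPM in TG crush. The median change of the 17 markers was -0.14, and the part of the cell type's level in the change of Gpr84 was not tested.

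Genes outside the clock list also rose. Zmynd12 (chromosome 5, 138470165 to 138505928) ranged from 2.67 through 4.01 to 4.74 RPM in TG naive and from 8.31 through 8.66 to 9.56 RPM in TG crush, a 2.14-fold rise (1.10, SE 0.11, adjusted p = 2.96e-05). Slc7a6 (chromosome 19, 38152225 to 38179149), an exchanger of basic and neutral amino acids, ranged from 17.8 through 21.3 to 23.4 RPM and from 24.4 through 31.3 to 38.7 RPM (0.55, SE 0.10, adjusted p = 0.00942). The groups of both genes stayed apart. Rasl10a, a small Ras-like GTPase, averaged 6.26 ± 0.9 and 9.95 ± 1.76 RPM (0.62, SE 0.11, adjusted p = 0.0126) with overlapping groups. The adjusted p of Rasl10a was 0.0687 without the libraries high in Slc17a7. All 1379 bases of Rasl10a lie within Gas2l1 on the opposite strand, which averaged 91.4 RPM with a change of -0.09 (adjusted p = 0.416). Since the use of strand in counting is unstated, some reads of Rasl10a may belong to Gas2l1.

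Of 17 ionotropic glutamate receptor genes 1 rose (5.88%, against 0.245% of all genes), Grik5, the kainate receptor subunit GluK5. Grik5 averaged 204 ± 20.4 RPM (SD, n = 8) and 267 ± 33.0 RPM (SD, n = 6), a change of 0.38 (SE 0.08, adjusted p = 0.0364), and its call was lost in 12 of 29 alternatives, 8 of them leave-outs of 1 library. GABA-A receptor subunits did not pass in any of 12 cases, and 11 had a positive change. Spiny projection neuron markers did not pass in any of 20 cases, with a median of -0.03.

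**Figure D3:**
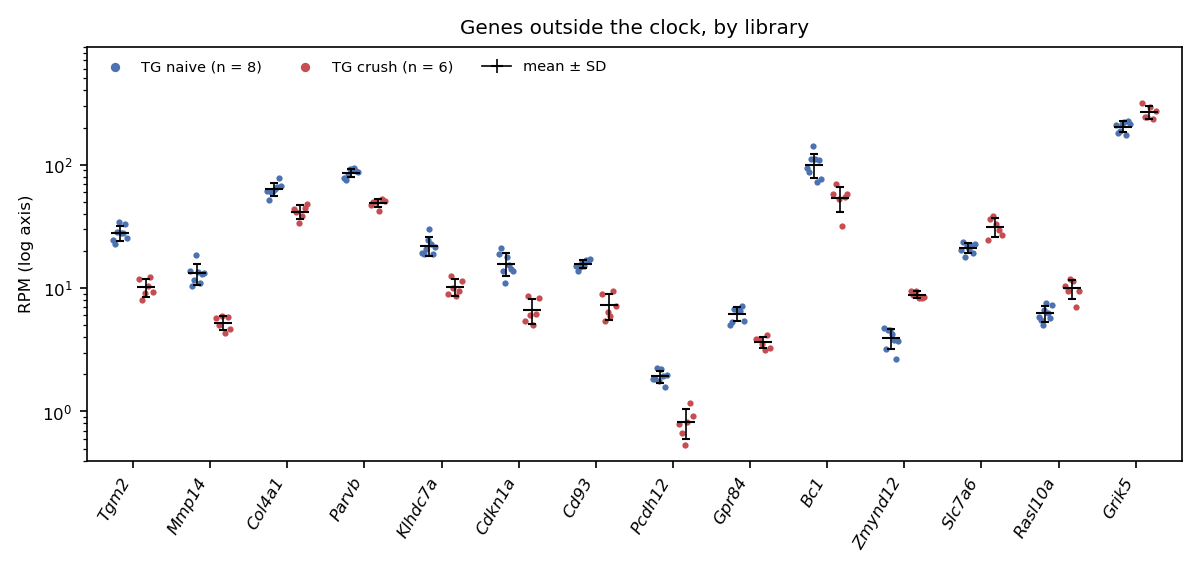
RPM (logarithmic axis) of 14 genes outside the clock in the 8 TG naive (blue) and 6 TG crush (red) libraries, with mean and SD as bars. Tgm2, Mmp14, Cdkn1a, Cd93, Parvb and Klhdc7a fall into separate ranges, lower in TG crush, and Zmynd12 lies higher in TG crush.

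Genes of low level, or of moderate level over long spans, make up part of these calls. Of the genes tested, 5667 had an RPKM (reads per kilobase of gene span per 1000000) under 0.5 in more than 8 libraries. A minimum on RPKM removes these genes, which held 54 calls (0.953%, against 0.741% of all genes tested), 16 higher and 38 lower. Zmynd12, Arntl and Pcdh12 are among them. Further examples are Eqtn, an acrosomal membrane protein (1.55 ± 0.347 and 3.32 ± 0.819 RPM, 0.89, SE 0.14, adjusted p = 0.00414), and Creb3l1, a transcription factor of the endoplasmic reticulum membrane (5.80 ± 0.976 and 3.38 ± 0.451 RPM, -0.69, SE 0.11, adjusted p = 0.0042). Tmem140 averaged 5.38 ± 0.503 and 3.04 ± 0.757 RPM (-0.76, SE 0.12, adjusted p = 0.0042). Eqtn overlaps the endothelial gene Tek on the opposite strand over 609 bases, and Tmem140 overlaps LOC500077 over 144 bases.

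Of the 7 torsins and cofactors 0 passed, with a median of -0.02, and rat Tor1a averaged 21.8 ± 1.29 RPM (SD, n = 8) and 21.2 ± 2.25 RPM (SD, n = 6) (-0.05, 95% interval -0.19 to 0.10). Tor1aip1, whose product LAP1 activates torsinA, had the lowest p of the list (-0.19, SE 0.05, adjusted p = 0.112), and it passed in the fit of all 28 libraries (adjusted p = 0.0375) and with array weights (adjusted p = 0.0372). No gene passed among 14 of the nuclear envelope, 20 of inherited dystonia, 20 endoplasmic reticulum chaperones, 12 heat shock proteins and 17 of the integrated stress response. Their medians lay between -0.15 and -0.01. In the fit of all 28 libraries the genes of lowest p in 4 of these lists passed, Banf1 of the nuclear envelope (adjusted p = 0.029), the chaperone Calr (adjusted p = 0.0327), the heat shock protein Hspe1 (adjusted p = 0.0498) and Ppp1r15b of the integrated stress response (adjusted p = 0.028).

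Genes of nerve injury and of neuronal activity did not pass either. None of 15 axon injury genes, 16 neurotrophic factors and receptors, 22 immediate early genes and 12 granins and processing enzymes passed. The lowest p among the neurotrophic genes was that of Cntfr, a receptor for ciliary neurotrophic factor, which averaged 97.5 ± 7.32 and 80.8 ± 6.67 RPM (-0.27, SE 0.06, adjusted p = 0.0538). It passed in 4 of the leave-outs, without TG naive 187 (adjusted p = 0.0425) or 188 (adjusted p = 0.0367) and without TG crush 223 (adjusted p = 0.0449) or 226 (adjusted p = 0.0214). Vgf, a secreted neuropeptide precursor, averaged 101 ± 20.1 and 67.9 ± 15.6 RPM (-0.58, SE 0.15, adjusted p = 0.0819). Both passed in the fit of all 28 libraries (Cntfr adjusted p = 0.00212, Vgf adjusted p = 0.0147), with array weights (0.015 and 0.0324) and with spiny neuron level as a covariate (0.0322 and 0.0254).

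Cytosolic ribosomal protein genes had small changes of a like sign. None of 78 passed, 76 had a negative change and the median was -0.18. An unadjusted p under 0.05 was found for 51 of them, against 2702 of all 16338 genes. The lowest p was that of Rpl35, with 140 ± 9.58 and 113 ± 15.5 RPM (-0.32, SE 0.08, adjusted p = 0.066), and it passed without TG naive 188 (adjusted p = 0.0474) and without TG crush 223 (adjusted p = 0.0276) or 226 (adjusted p = 0.0385). With array weights 40 of them passed as lower, in a fit of all 28 libraries 9, and without TG crush 223 16. Those fits called 780, 379 and 321 of all 16338 genes lower. With the endothelial level as a covariate the median was -0.06, and the part of that level in the change was not tested further. Of 72 nuclear respiratory chain genes, 31 proteasome subunits, 13 mitochondrial transcripts and 20 genes of cholesterol synthesis and uptake 0 passed. The same was true of 19 Notch pathway genes, 25 interferon-induced genes, 9 metallothionein and zinc genes, and the markers of astrocytes (18), oligodendrocytes (18) and pericytes (9). In the fit of all 28 libraries 4 respiratory chain genes, 1 interferon-induced gene and 1 metallothionein or zinc gene passed as lower and 1 Notch pathway gene as higher. Over all 16338 genes that fit called 379 lower and 192 higher. The astrocyte marker Mlc1, the oligodendrocyte marker Olig1 and the metallothionein Mt2A passed as lower in other settings. These were array weights, spiny neuron level as a covariate and leaving out TG crush 223 (adjusted p between 0.0207 and 0.0496).

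**Figure D4:**
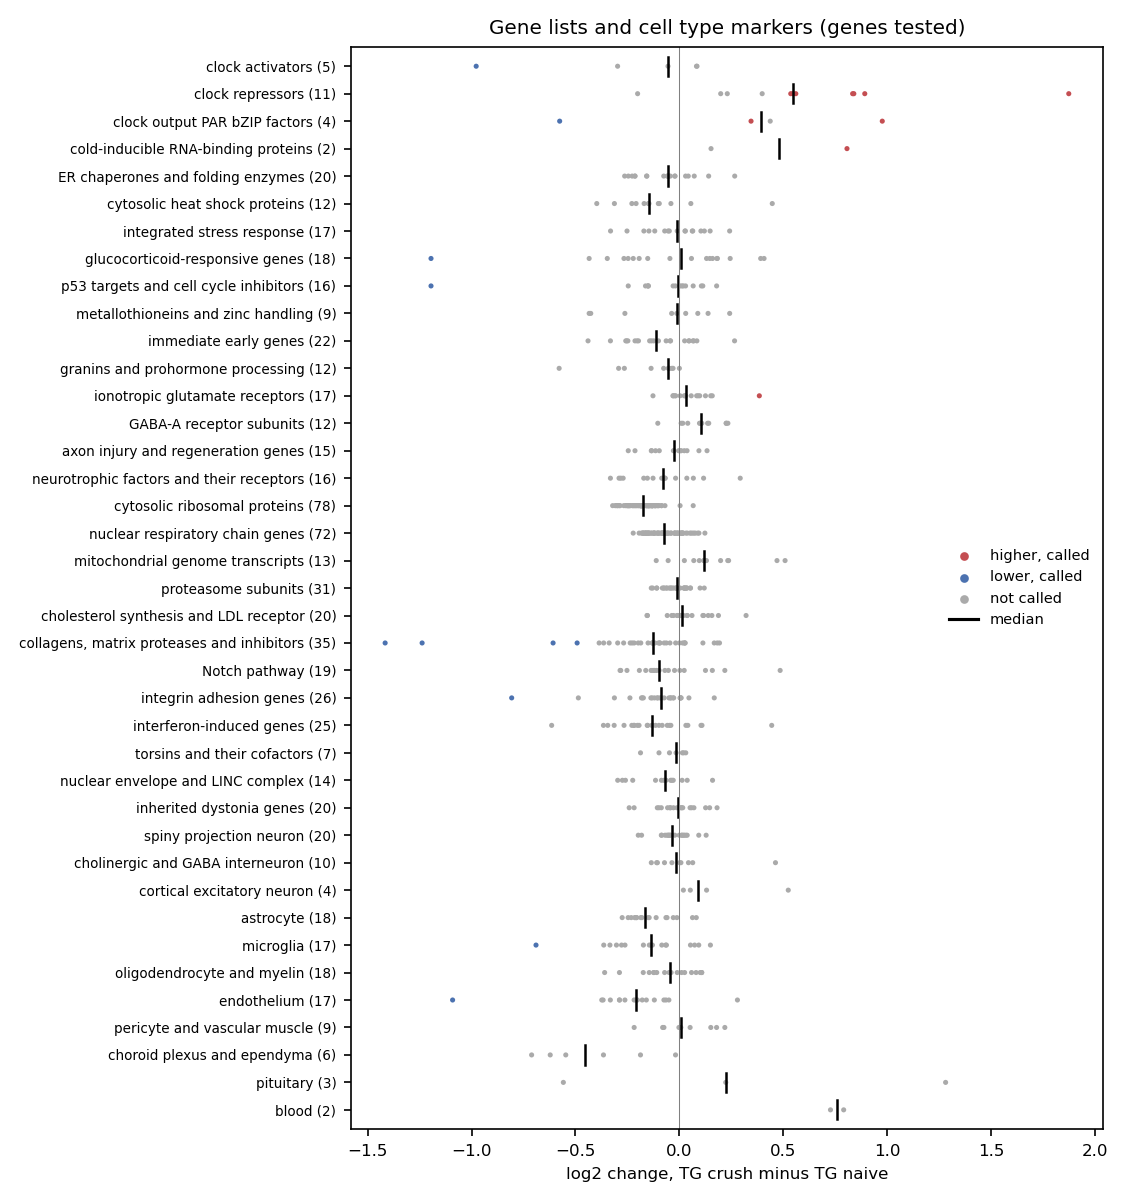
Log2 change between TG crush and TG naive (horizontal axis) of the tested genes of each list and marker list, with the number tested in brackets, calls in red (higher) and blue (lower), other genes in grey and the list's median as a black bar. The bars of clock repressors and output factors lie to the right of 0, and those of ribosomal proteins and endothelium to the left, at -0.18 and -0.21.

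The 14 wt libraries, 6 crush and 8 naive, share no library with the TG comparison, and the same 16338 genes were fitted in them. There 54 genes passed (0.331%), 19 higher (0.116%) and 35 lower (0.214%), and the groups did not overlap for 0.71% of genes. Spiny neuron markers were less even between the groups in wt rats, with a median change of 0.38 against -0.03 in TG rats. Their mean log2 level ran from 8.32 to 9.31 in wt naive and from 9.15 to 9.33 in wt crush libraries. With that level as a covariate 9 genes passed in wt rats. Between the comparisons, 13 passed in both genotypes, all with the same sign. These are 10.7% of the TG calls and 24.1% of the wt calls: Nr1d2, Ciart, Dbp, Per3 and Bhlhe41 were higher, and Tgm2, Parvb, Mmp14 and Klhdc7a were among the lower genes. Of the 121 TG calls 112 (92.6%) had the same sign in wt rats, against 65.7% of all genes. Cytosolic ribosomal protein genes had a median change of -0.17 in wt and -0.18 in TG rats. Leaving out 1 wt library at a time gave 10 (without wt crush 205) to 1924 (without wt naive 196) wt calls.

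The leading genes are given here in both genotypes side by side. Ciart had a change of 1.05 (SE 0.13) in wt rats against 1.87 (SE 0.16) in TG rats, Dbp one of 0.51 (SE 0.07) against 0.98 (SE 0.10), and Tgm2 one of -0.69 (SE 0.09) against -1.42 (SE 0.10). In naive libraries Ciart averaged 7.59 RPM in wt and 4.68 RPM in TG rats, Dbp 217 and 163, and Tgm2 23.6 and 27.95. In crush libraries Ciart averaged 16.1 and 18.3 RPM, Dbp 306 and 319, and Tgm2 14.4 and 10.2. These levels were not tested between genotypes here. Arntl had a change of -0.25 (SE 0.10, adjusted p = 0.140) and Zmynd12 one of 0.15 (SE 0.20, adjusted p = 0.658) in wt rats. Cd93 had one of -0.35 (SE 0.10, adjusted p = 0.0905) and Slc7a6 one of -0.02 (SE 0.10, adjusted p = 0.897).

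The difference between the genotypes was itself tested in a fit of all 28 libraries, and 1 gene passed (0.00612%), Nr1d2. Its change was 0.83 (SE 0.05) in TG and 0.36 (SE 0.05) in wt rats, a difference of 0.48 (SE 0.07, adjusted p = 0.0072). Nr1d2 averaged 66.6 RPM in TG naive against 85.6 RPM in wt naive libraries, and 119 RPM in TG crush against 110 RPM in wt crush libraries. No gene passed without the libraries that hold more than 20 RPM of Slc17a7. For Ciart the difference was 0.82 (SE 0.22, adjusted p = 0.345), for Tgm2 -0.73 (SE 0.14, adjusted p = 0.133), for Arntl -0.73 (SE 0.16, adjusted p = 0.275), for Cd93 -0.74 (SE 0.15, adjusted p = 0.146) and for Zmynd12 0.95 (SE 0.24, adjusted p = 0.322), so none of these was shown to differ between genotypes.

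**Figure D5:**
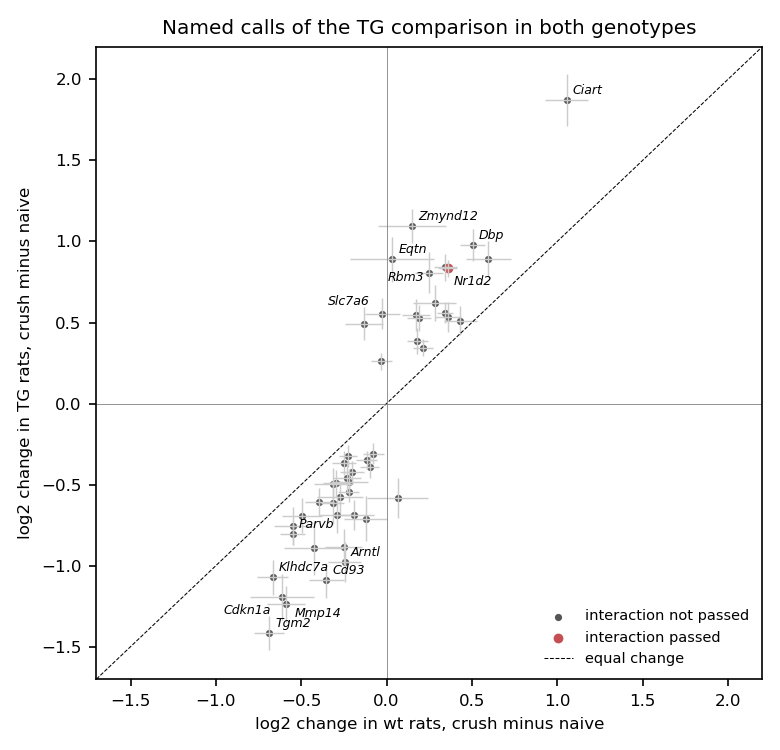
Log2 change between crush and naive in TG rats (vertical axis) against that in wt rats (horizontal axis) for named genes that passed in TG rats, with standard errors as grey bars and the line of equal change dashed. Ciart, Dbp and Tgm2 lie further from 0 in TG than in wt rats, and Nr1d2, in red, is the gene whose difference passed the test.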

How the data were processed

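Stranded mRNA libraries of 28 striatal samples were read from 1 end over 75 nt, in 2 runs, per the labels' protocols. The submitters' processing notes name STAR 2.6.1a, Rnor_6.0, featureCounts, Subread 1.6.3 and DESeq2 1.22.2. The sources used here give neither the run of each library nor the strand setting. The deposited table holds RPKM values per gene span, written with decimal commas, which made the unit check record them as other. RPKM times span in kilobases gave RPM. These were whole multiples of 1 read within a tolerance of 0.02 for 100% of values, and limma-voom on the recovered reads called 118 genes.

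The 14 TG libraries entered a limma 3.58.1 fit (R 4.3.3) of log2(RPM + 0.5) with variances that follow the mean. Of 15 measures of depth and composition each was compared by a two-sided exact permutation test over 3003 splits (scipy 1.17.1), whose smallest p is 0.000666. Named were the calls of largest change, up to 12 in each direction, at a mean of at least 5 RPM, all clock and cold-inducible genes, up to 4 called members of each list or its member of lowest p, 6 calls that an RPKM minimum removes, Tor1a and the human transcript. Genes in the last section outside this rule were picked once their values were known. The members, lists and tests were chosen with earlier results of these data known. Alternatives were pseudocounts of 0.1 and 2, filters, rescaling by TMM or median of ratios, other fits, covariates and leaving out libraries. A few results are not reported here.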

Additional observations from a re-analysis of the deposited data

Results flagged for a closer look

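In the groups of 6 and 8 libraries, a value was listed where its gap to the nearest other library was too large a share of the group's range for Dixon's test at 95%, which chance alone gives in about 1 in 20 groups. Many named genes were searched in this way, so several such values would be listed by chance alone. TG crush 223 was the lowest TG crush library in Arntl (15.5 RPM, the next at 22.5) and in rat Tor1a (16.9 RPM, the next at 21.1), and the highest in the ependymal gene Foxj1 (7.38 RPM, the next at 3.95). TG crush 214 was the highest in Rbm3, at 52.0 RPM with the next at 36.7. TG crush 226 held 102 RPM of the human TOR1A transcript, the next lowest 133. Among TG naive libraries, 190 was the highest in Mmp14 (18.6 RPM), 191 the highest in Hbb-b1 (8.56 RPM), and 187 the highest in Nfil3 (16.8 RPM) and Plat (91.6 RPM) and the lowest in Olig1 (180.3 RPM). Apart from these single libraries, the change of Nr1d2 between naive and crush libraries differed between the genotypes, by 0.48 on the log2 scale in the interaction test.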

How the results depend on the processing

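No paired analysis was possible because each library has a number of its own and no number is shared between groups. The count of genes that passed between TG crush and TG naive, 121, was 571 in a fit of all 28 libraries, 1211 with array weights, 360 with a covariate for spiny neuron level, 72 with at least 5 RPM required in all 14 libraries, 69 on RPKM with its own minimum, 57 without the libraries over 20 RPM of Slc17a7 and 15 when the fold had to exceed 1.2. It was 61 to 480 with 1 library left out at a time. It lay between 87 and 136 with the other pseudocounts, no filter, TMM, median-of-ratios rescaling, robust variances, voom and the endothelial covariate. The 54 wt calls were 18 without the libraries high in Slc17a7, 9 with the spiny neuron covariate and 10 to 1924 with 1 library left out. The 1 interaction call became 0 without the libraries high in Slc17a7 and 1 to 5 with 1 library left out. Where a setting changed a count, the cause was not tested. Of the 50 named genes that passed, 14 kept their call in all alternatives in which they were tested and 19 lost it only at the 1.2-fold minimum, and no named gene changed sign while called. At this depth, genes under 1 RPM in most libraries were not tested.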

Other observations

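Other genes that passed between TG crush and TG naive, chosen after their values were seen, include Sphk2, a kinase that makes sphingosine 1-phosphate. Sphk2 (chromosome 1, 101692972 to 101700604) lies tail to tail with Dbp on the opposite strand of the Rnor_6.0 map, and while Dbp rose, Sphk2 fell from 39.1 ± 2.38 RPM (SD, n = 8) in TG naive to 26.7 ± 2.22 RPM (SD, n = 6) in TG crush, with no overlap (-0.55, SE 0.06, adjusted p = 9.23e-05). Plat, the tissue plasminogen activator, averaged 72.9 ± 8.15 and 52.0 ± 6.51 RPM (-0.49, SE 0.08, adjusted p = 0.00703). Aass, an enzyme of lysine breakdown, fell by 0.42 (SE 0.07, adjusted p = 0.00704), and Rims4, of a family of presynaptic proteins, fell by 0.35 (SE 0.06, adjusted p = 0.00466). Zfp180, a zinc finger gene, averaged 329 ± 27.3 and 251 ± 23.4 RPM (-0.39, SE 0.07, adjusted p = 0.0109). Coq10b, which binds coenzyme Q, rose from 13.6 ± 1.01 to 19.99 ± 2.75 RPM (0.53, SE 0.08, adjusted p = 0.00399), and Epm2a, the glycogen phosphatase laforin, rose from 3.82 ± 0.536 to 5.63 ± 0.322 RPM (0.51, SE 0.09, adjusted p = 0.00893).

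Further calls were less firm. Loxl1, a crosslinking enzyme of elastic fibres (-0.46, adjusted p = 0.0303), and Wnt7a, a ligand with a role in brain vessels (-0.31, adjusted p = 0.0372), each lost the call in 12 alternatives. The amino acid enzymes Cbs (-0.37, adjusted p = 0.0247) and Gls2 (-0.32, adjusted p = 0.0297) lost it in 9 and 10, and the immune genes Fcgr2a (-0.50, adjusted p = 0.0208) and Traf1 (-0.71, adjusted p = 0.0213) in 7 each. Lyve1, a hyaluronan receptor (0.49, adjusted p = 0.0364), and Pik3ip1, an inhibitor of PI3 kinase (0.26, adjusted p = 0.034), were higher and lost the call in 14 and 11. Pik3ip1 overlaps Limk2 on the opposite strand over 8434 bases, so some of its reads may belong to Limk2. Limk2 averaged 63.9 RPM with a change of -0.03 (adjusted p = 0.852). With the endothelial covariate Epm2a (adjusted p = 0.0519), Loxl1, Cbs, Gls2, Fcgr2a, Traf1, Lyve1 and Pik3ip1 lost their call (adjusted p between 0.0519 and 0.143).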
